A study of Mus musculus with 24 samples.

Results

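The resting transcriptome of dermal fibroblasts labelled NIK X mut (MUT) was set against that of wild-type (WT) dermal fibroblasts. The comparison takes the 2 untreated MUT libraries and the 4 untreated WT libraries, chosen by their genotype and treatment labels, which is 6 of the 24 libraries of the series. Both groups were primary cells from mouse skin at passage 5 that had received no TWEAK, and the series describes the WT mice as littermates of the mutants. Not stated in the labels are the change that the mutation makes in NIK, whether it lies on 1 or both alleles, the age or strain of the mice, or whether replicates came from separate mice, so p-values measure only the spread between these samples, which may be technical. The assay was bulk MARS-seq, which tags the 3′ end of each transcript with a unique molecular identifier (UMI) and counts molecules. The other 18 libraries, from MUT and WT cells given TWEAK at 100 ng/ml for 6 or 24 h and from NIK knockout (KO) cells, entered only the estimate of the spread and the values named as such below. The libraries labelled 6 h carry 3 h in the column names of the count table, so the length of that earlier treatment is uncertain, and 6 h is used here as in the labels.

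NIK is a kinase, encoded by Map3k14, at the head of noncanonical NF-kB signalling. In resting cells the NIK protein is degraded as fast as it is made by a complex of TRAF3, TRAF2 and the ubiquitin ligases cIAP1 and cIAP2. Receptors of the TNF family, such as the TWEAK receptor encoded by Tnfrsf12a, stop that degradation, after which NIK activates IKK-alpha (Chuk) and the precursor made from Nfkb2 is cut to p52, which acts with RelB. Nfkb2 and Relb are themselves transcribed by NF-kB, as are the inhibitors that shut the response down. The activity of NIK is therefore set mainly at the protein level, which RNA counts do not measure.

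The 6 libraries held between 1575261 UMIs (WT replicate 4) and 4342981 UMIs (MUT replicate 1), and the other MUT library held 3040241. The WT libraries were not alike. On the first principal component, with 48.5% of the variance, the MUT libraries lay at -19.2 and -18.6, WT replicates 3 and 4 at -20.2 and -18.8, and WT replicates 1 and 2 at 51.6 and 25.2. Between WT replicates 3 and 4 and WT replicates 1 and 2 of the same genotype and treatment, 952 of 11337 genes (8.4%) passed the edgeR quasi-likelihood test at an adjusted p under 0.05. Spearman's rho across the 11337 genes tested, given as a description, was 0.985 between the MUT libraries, 0.975 to 0.980 between MUT and WT replicates 3 and 4, and 0.941 to 0.962 between MUT and WT replicates 1 and 2. Both MUT libraries held 0 Xist UMIs with 88 and 86 Y-linked UMIs, while WT replicate 1 held 17 Xist UMIs and 0 Y-linked UMIs and WT replicates 2 to 4 held 37 to 75 Y-linked UMIs. What divides the WT libraries was not tested, so each result is given against all 4 WT libraries and, where it matters, against WT replicates 3 and 4 and against WT replicates 1 and 2 apart.

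**Figure D1:**
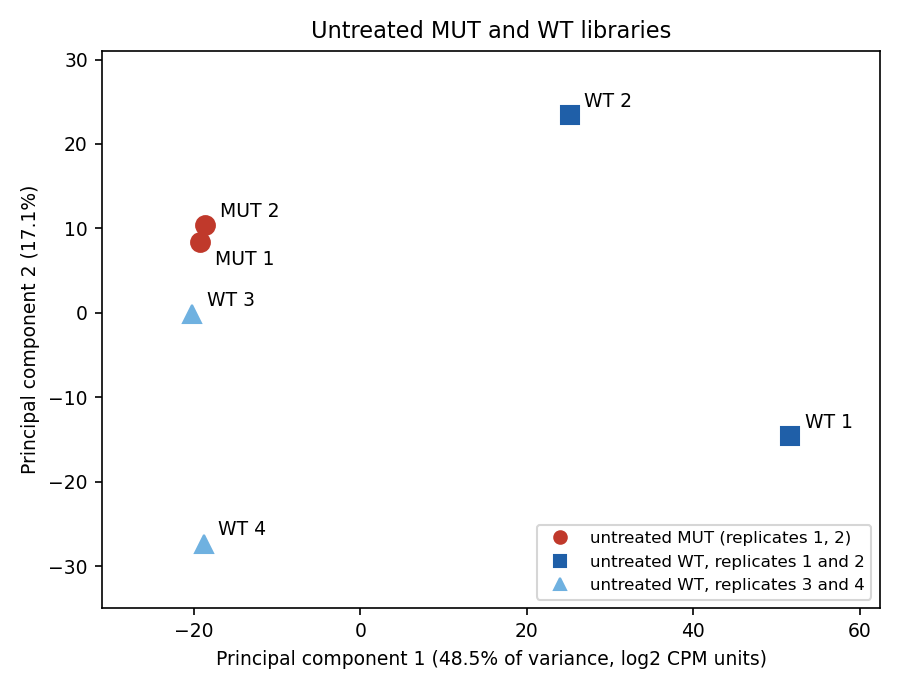
Principal components of the 6 untreated libraries, from log2 CPM of the genes tested. Each point is a library. The MUT libraries (red circles) lie beside WT replicates 3 and 4 (light triangles) at about -19 on the first axis, and WT replicates 1 and 2 (dark squares) lie at 51.6 and 25.2.

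The fibroblast label held in both genotypes. Vim, an intermediate filament of mesenchymal cells, had 7399 and 5922 CPM (the TMM-normalised count scaled to a common library size) in MUT, against 7324, 6906, 7099 and 7893 CPM in WT. Thy1, a surface marker of fibroblasts, had 1958 and 1776 CPM in MUT and 1771, 1371, 1869.8 and 1558 CPM in WT. Of 16 fibroblast markers 13 were tested, 1 lay above all WT libraries in both MUT libraries (Dlk1; 8.35% of all genes tested did) and 2 lay below (Pdgfrb and Cd34; 8.63% did), and their summed level was 11008 to 13966 CPM in MUT and 11852 to 13026 CPM in WT. Markers of other cell types were sparse. Of 9 melanocyte and Schwann cell markers 2 were tested, and 1, Sox10, lay below all WT libraries in both MUT libraries (8.63% of all genes tested did). Sox10 had 6.54 and 8.83 CPM in MUT and 11.4, 13.8, 12.7 and 16.1 CPM in WT. The 4 adipocyte markers tested, of 8, summed to 15.2 to 15.4 CPM in MUT and 10.6 to 33.1 CPM in WT. The 3 endothelial markers tested, of 8, summed to 8.83 to 10.1 CPM in MUT and 7.72 to 15.1 CPM in WT, and the 3 macrophage and leukocyte markers tested, of 10, summed to 12.4 to 16.4 CPM in MUT and 12.2 to 13.7 CPM in WT. For keratinocytes 3 of 10 markers were tested and summed to 26.2 to 38.8 CPM in MUT and 26.7 to 63.6 CPM in WT, most of it from Sfn in each library, and Krt14 had 3 and 4 UMIs in MUT and 14, 1, 1 and 1 UMIs in WT. Of 12 skeletal muscle markers 7 were tested, and they summed to 155 to 189 CPM in MUT and 84.3 to 338 CPM in WT, with the highest value in WT replicate 4. Their median log2 difference was -0.49 against all WT libraries, -1.10 against WT replicates 3 and 4 and 0.36 against WT replicates 1 and 2. The 5 pericyte and smooth muscle markers tested, of 8, summed to 206 CPM in each MUT library and 170 to 261 CPM in WT. In both MUT libraries 4 of the 5 lay below WT replicates 3 and 4 (19.0% of all genes tested did). Of the defining markers of those types, Pecam1, Ptprc and Krt5 were not analysed here. The part of the Sox10, skeletal muscle and pericyte marker signals in the differences that follow was not tested.

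No gene passed the test between untreated MUT and untreated WT. At an adjusted p under 0.05 edgeR called 0 of 11337 genes (0.0%), and at an unadjusted p under 0.05 there were 815 genes (7.19%), of which 362 were higher in MUT (3.19%) and 453 lower (4.0%). DESeq2 called 2 genes, Mtch1 and Ubb-ps, both lower in MUT. Both MUT libraries lay above all 4 WT libraries for 947 genes (8.35%) and below them for 978 (8.63%). The answer depended on which WT libraries were used. Against WT replicates 3 and 4 edgeR called 1 gene (0.00882%), Pdlim1, whereas against WT replicates 1 and 2 it called 714 genes higher (6.3%) and 603 lower (5.32%). Pdlim1 encodes an actin-associated LIM protein and had 159 and 112 CPM in MUT, against 136, 123, 43.3 and 62.4 CPM in WT. Its MUT values overlapped WT replicates 1 and 2 and stood above WT replicates 3 and 4 only, by 1.38 on the log2 scale (adjusted p = 0.0319).

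The NIK transcript was present in MUT at a level that overlapped WT. Map3k14 (GRCm38 chromosome 11, 103219762 to 103267472, minus strand, protein coding) had 28.0 and 25.5 CPM in MUT and 15.2, 25.7, 22.5 and 21.9 CPM in WT, a log2 difference of 0.33 ± 0.28 (SE; 95% interval -0.26 to 0.91). The MUT libraries held 120 and 78 Map3k14 UMIs and the WT libraries 40, 80, 53 and 34. These are counts of the 3′ end, and they do not tell whether the coding sequence upstream is altered.

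Transcripts of the NF-kB subunits were all lower in MUT, by 0.40 to 0.49 on the log2 scale, and none passed the test. Nfkb2, which encodes the p100 precursor that NIK signalling cuts to p52 (chromosome 19, 46304320 to 46312385, plus strand), had 75.0 and 74.6 CPM in MUT, against 123, 94.3, 95.1 and 95.2 CPM in WT. Both MUT libraries lay below all 4 WT libraries, 3 of which lay within 1 CPM of each other while WT replicate 1 was higher, and Nfkb2 averaged 74.8 ± 0.312 CPM in MUT and 102 ± 14.1 CPM in WT (SD, n = 2 and n = 4). In these bulk libraries, less of a transcript per cell and fewer cells with it cannot be told apart. The log2 difference was -0.45 ± 0.17 (SE; 95% interval -0.81 to -0.09; unadjusted p = 0.0173, adjusted p = 0.679), and it was -0.35 against WT replicates 3 and 4. Relb, the partner of p52, had 14.7 and 16.0 CPM in MUT and 20.6, 21.9, 21.2 and 22.5 CPM in WT. The Relb values of the WT libraries spanned less than 2 CPM, the MUT libraries lay below all of them, and the log2 difference of -0.49 ± 0.19 (SE; unadjusted p = 0.0186, adjusted p = 0.679) was -0.51 against WT replicates 3 and 4 and -0.47 against WT replicates 1 and 2.

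The canonical subunits had the same sign. Nfkb1, which encodes the p105 precursor of p50, had 55.4 and 59.2 CPM in MUT and 74.6, 81.4, 63.3 and 84.9 CPM in WT, with no overlap and a log2 difference of -0.41 ± 0.17 (SE; unadjusted p = 0.0293). Rel, the c-Rel subunit, was sparse, at 3.74 and 3.60 CPM in MUT and 4.57, 4.50, 5.09 and 6.43 CPM in WT. Its log2 difference was -0.45 ± 0.33 (SE), again without overlap. Rela, the p65 subunit, had 104 and 121 CPM in MUT and 180.0, 149.6, 144 and 117 CPM in WT, and here the higher MUT library lay above WT replicate 4. Its log2 difference was -0.40 ± 0.18 (SE) against all WT libraries and -0.22 against WT replicates 3 and 4.

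The receptor and the kinases upstream of the subunits overlapped between genotypes. Tnfrsf12a, the TWEAK receptor, had 409 and 365 CPM in MUT and 625, 211, 289.6 and 401 CPM in WT, where the WT libraries alone spanned almost a 3-fold range. Chuk, which encodes the IKK-alpha kinase that NIK activates, had 24.5 and 29.4 CPM in MUT and 33.9, 37.0, 24.6 and 27.0 CPM in WT, and Ikbkb, its canonical counterpart, 30.2 and 29.1 CPM in MUT and 28.5, 26.4, 25.9 and 30.2 CPM in WT. Their log2 differences were 0.02, -0.20 and 0.10, each with a 95% interval that includes 0. Traf3 and Birc2, of the complex that degrades NIK, overlapped between the genotypes, with log2 differences of -0.01 and 0.09. Traf2, the adaptor in that complex, had 23.4 and 23.9 CPM in MUT and 22.1, 22.8, 17.0 and 15.4 CPM in WT, above all WT libraries by a small margin and with a log2 difference of 0.27 ± 0.21 (SE). Of the 15 noncanonical components tested, 10 were below 0 and 5 above, with a median of -0.04 that was 0.06 against WT replicates 3 and 4 and -0.25 against WT replicates 1 and 2. Of the 15 canonical components tested, 13 were below 0 and 2 above, with a median of -0.19, beside a median of -0.01 over all genes tested. That median was -0.07 against WT replicates 3 and 4 and -0.30 against WT replicates 1 and 2. Without the subunits Nfkb1, Rel and Rela, 10 of the other 12 canonical components were below 0.

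**Figure D2:**
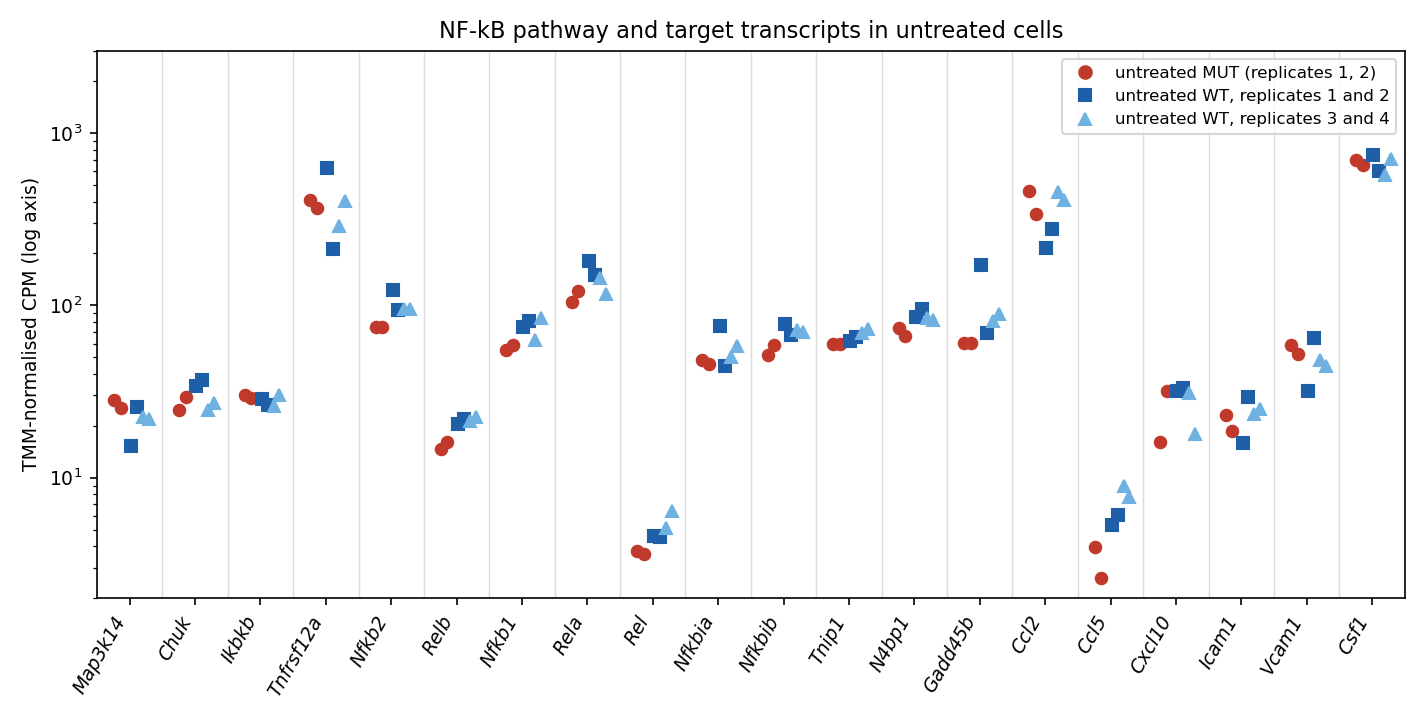
TMM-normalised CPM (log axis) of 20 NF-kB pathway and target genes in each untreated library. Red circles are the 2 MUT libraries, drawn left of the 4 WT libraries (dark squares replicates 1 and 2, light triangles replicates 3 and 4). The MUT points of Nfkb2, Relb, Nfkb1 and Rel lie under every WT point, and those of Map3k14, Tnfrsf12a, Ccl2 and Icam1 overlap the WT points.

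Genes on the list of NF-kB feedback inhibitors were also mostly lower. Whether NF-kB induces each of them in these cells was not tested. Of 10 tested, 8 were below 0, 3 lay below all WT libraries (Nfkbib, Tnip1 and N4bp1), beside 8.63% of all genes tested, and 0 had an unadjusted p under 0.05. The median was -0.26 against all WT libraries, -0.25 against WT replicates 3 and 4 and -0.29 against WT replicates 1 and 2, so it moved little with the WT libraries used. Nfkbib, the inhibitor IkB-beta, had 51.4 and 58.9 CPM in MUT and 78.0, 67.6, 71.8 and 70.1 CPM in WT, a log2 difference of -0.38 ± 0.19 (SE). Tnip1, a partner of the deubiquitinase A20, had 59.4 and 59.9 CPM in MUT and 62.0, 65.6, 68.8 and 72.7 CPM in WT, a log2 difference of -0.17 ± 0.17 (SE). Nfkbia, the inhibitor IkB-alpha and the standard early target of NF-kB, had 47.9 and 45.5 CPM in MUT and 76.1, 44.7, 50.1 and 57.9 CPM in WT. The MUT values of Nfkbia lay within the WT range, just above its lowest value.

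Promoter windows of 4 of these genes are shown because they hold the kappaB consensus, the 10-base sequence that NF-kB dimers bind. Each is the RefSeq window of GRCm38.p6 from 250 bases before to 50 bases after a RefSeq start of the gene, in the direction of transcription, with every base in a kappaB match in capitals. The windows are chr19:46304487-46304786 on the plus strand for Nfkb2, chr11:54962891-54963190 on the minus strand for Tnip1, chr11:23770920-23771219 on the minus strand for Rel and chr12:55492598-55492897 on the minus strand for Nfkbia.
Nfkb2: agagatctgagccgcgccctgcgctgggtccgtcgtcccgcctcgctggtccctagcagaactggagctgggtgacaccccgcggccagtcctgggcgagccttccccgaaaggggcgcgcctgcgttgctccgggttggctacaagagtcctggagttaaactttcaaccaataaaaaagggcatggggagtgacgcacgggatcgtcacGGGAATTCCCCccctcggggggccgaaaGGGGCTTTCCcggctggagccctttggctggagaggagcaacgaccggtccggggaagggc
Tnip1: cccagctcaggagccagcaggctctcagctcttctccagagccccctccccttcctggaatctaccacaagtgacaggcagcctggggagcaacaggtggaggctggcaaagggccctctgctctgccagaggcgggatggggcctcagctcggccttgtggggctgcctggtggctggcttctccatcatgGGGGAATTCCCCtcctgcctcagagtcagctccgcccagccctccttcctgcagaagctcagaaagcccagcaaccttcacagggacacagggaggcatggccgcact
Rel: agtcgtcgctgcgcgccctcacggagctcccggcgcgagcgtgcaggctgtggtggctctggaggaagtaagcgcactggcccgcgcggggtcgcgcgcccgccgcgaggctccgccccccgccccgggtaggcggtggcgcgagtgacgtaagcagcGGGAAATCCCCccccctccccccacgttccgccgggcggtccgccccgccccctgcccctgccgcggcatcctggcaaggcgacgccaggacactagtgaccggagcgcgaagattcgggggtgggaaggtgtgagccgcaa
Nfkbia: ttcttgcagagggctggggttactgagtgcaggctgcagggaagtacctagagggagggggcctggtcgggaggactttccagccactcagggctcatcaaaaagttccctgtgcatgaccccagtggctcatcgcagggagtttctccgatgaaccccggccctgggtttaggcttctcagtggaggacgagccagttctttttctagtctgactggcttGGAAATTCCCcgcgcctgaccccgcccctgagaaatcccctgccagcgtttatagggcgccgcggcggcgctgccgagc
Nfkb2 has 3 RefSeq starts, with 3, 2 and 1 matches in their windows, and the window shown is the one with 3. It lies inside the Nfkb2 gene as GENCODE gives it above, which begins further upstream. The Nfkb2 window shown holds 3 matches, 2 of them overlapping, Tnip1 3 overlapping matches, Rel 2 overlapping matches and Nfkbia 1. The windows of the inhibitors Nfkbib and N4bp1, the subunit Rela and the stress target Gadd45b, not shown, hold 0 matches. Relb and Nfkb1 had no window. The consensus, searched on both strands, occurs in 2779 of 32851 such windows (8.46%) and in 25 of the 86 windows of the tested genes of the 7 NF-kB lists (29.1%). Of the tested genes on those lists, 68 had a window. The 23 with a match had a median log2 difference of -0.17, and 15 of them were below 0. The 45 without a match had a median of -0.03, and 24 were below 0. Over all genes tested the medians were -0.03 for the 1108 with a match and -0.01 for the 7684 without. A match is a description of the letters and does not show binding.

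Secreted and survival targets of NF-kB did not share 1 direction. Gadd45b, a stress-induced regulator of MAP kinase signalling, had 60.1 and 60.8 CPM in MUT and 171, 68.8, 80.7 and 89.4 CPM in WT. The MUT values of Gadd45b lay below all WT libraries, with a log2 difference of -0.76 ± 0.27 (SE; adjusted p = 0.679) that was -0.49 against WT replicates 3 and 4. Of 12 survival and stress targets, 8 were below 0 and 4 above, with a median of -0.25 against all WT libraries, -0.04 against WT replicates 3 and 4 and 0.04 against WT replicates 1 and 2. The antiapoptotic Bcl2l1 had 100.0 and 99.1 CPM in MUT and 186, 124, 94.7 and 95.2 CPM in WT, where MUT was close to WT replicates 3 and 4 and lay below WT replicates 1 and 2.

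Chemokines changed sign with the WT libraries used. Their median log2 difference over 15 genes was 0.24 against all WT libraries, -0.11 against WT replicates 3 and 4 and 0.73 against WT replicates 1 and 2, and 0 of them had an unadjusted p under 0.05 against all WT libraries. Ccl2, which attracts monocytes, had 459.5 and 338 CPM in MUT, against 214, 276, 457 and 407 CPM in WT, and Cxcl12, the ligand of CXCR4, had 377 and 379.8 CPM in MUT and 152, 440.4, 417 and 439.9 CPM in WT. Ccl5, a T cell attractant, was the only chemokine of the 15 with both MUT libraries on 1 side of all WT libraries. Over all genes tested, 8.35% lay above all WT libraries in this way and 8.63% below. Ccl5 had 3.97 and 2.62 CPM in MUT and 5.33, 6.11, 8.92 and 7.72 CPM in WT, and its log2 difference was -1.02 ± 0.65 (SE). Of 9 leukocyte adhesion molecules tested, 7 were above 0 and 1 below, with a median of 0.11, and 2 lay above all WT libraries (Alcam and Ncam1), beside 8.35% of all genes tested. Alcam had 17.3 and 22.9 CPM in MUT and 3.81, 10.3, 11.9 and 16.7 CPM in WT, a log2 difference of 0.95 ± 0.48 (SE), and Ncam1 had 247 and 221 CPM in MUT and 201, 178, 194 and 205 CPM in WT. The NF-kB-induced adhesion molecules Icam1 and Vcam1 overlapped between genotypes. Icam1 had 23.1 and 18.6 CPM in MUT and 16.0, 29.3, 23.4 and 25.1 CPM in WT, and Vcam1 had 58.7 and 52.0 CPM in MUT and 32.0, 64.7, 48.4 and 44.4 CPM in WT.

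Growth factors went the other way. Of 17 cytokines and growth factors tested, 13 were above 0, 3 had an unadjusted p under 0.05, all higher in MUT (3.19% of all genes tested were), and the median was 0.38 against all WT libraries, 0.30 against WT replicates 3 and 4 and 0.86 against WT replicates 1 and 2. Hgf, the ligand of the receptor Met, had 6.54 and 6.54 CPM in MUT and 1.14, 2.90, 1.70 and 1.93 CPM in WT, so each MUT library held more than any WT library. The log2 difference was 1.72 ± 0.41 (SE; adjusted p = 0.634), and it rested on 28 and 20 UMIs in MUT and 3, 9, 4 and 3 UMIs in WT. Igf1, insulin-like growth factor, had 46.3 and 44.8 CPM in MUT and 12.2, 19.6, 39.1 and 29.6 CPM in WT, where WT replicate 3 came close to the MUT libraries. Fgf7, the keratinocyte growth factor, had 68.2 and 60.5 CPM in MUT and 27.0, 43.4, 67.5 and 34.7 CPM in WT, and WT replicate 3 lay between the MUT libraries.

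Genes that TWEAK raises were also followed as a group. To keep the choice free of untreated MUT and WT libraries, they were taken from KO cells, where 9 of 11337 genes (0.0794%) rose at 6 h by a log2 change of at least 1. As KO cells lack NIK, these are genes that rose without it, and genes that rise only with NIK are left out. These 9 (Nfkb2, Relb, Ccl2, Cxcl16, Nfkbia, Tnip1, Iigp1, Cxcl10 and Ccl20) had a median difference of -0.29 between untreated MUT and WT, with 8 below 0, 3 below all WT libraries, 0 past edgeR's test and 2 lower at an unadjusted p under 0.05. Over all genes tested the last 3 shares were 8.63%, 0.0% and 4.0%. The median of the 9 was -0.24 against WT replicates 3 and 4. Nfkb2, Relb and Tnip1 are the 3 that lay below all WT libraries, and they are described above. A longer and different list, the 192 genes (1.69%) that rose in WT replicates 1 and 2 at 6 h, had a median of -0.01 against WT replicates 3 and 4, whose libraries took no part in the choice. Over the 7 NF-kB lists together, 42 of 93 genes tested were above 0 and 50 below, 3 had an unadjusted p under 0.05 and were higher, 5 had one and were lower (3.19% and 4.0% over all genes tested), and the median was -0.04.

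Among all genes, the genes that separated best had varied functions. They were chosen by a rule, as the named genes of at least 5 CPM without overlap between genotypes and with the smallest unadjusted p, 12 in each direction. Mtch1, a mitochondrial outer membrane protein (chromosome 17, 29332072 to 29347934, minus strand), had 315 and 398 CPM in MUT and 612, 707, 656 and 737 CPM in WT. The log2 difference was -0.93 ± 0.18 (SE; unadjusted p = 4.69e-05, adjusted p = 0.417), and it was nearly the same against either pair of WT libraries (-0.97 and -0.89). Dapk3, a kinase of the death-associated family that acts on myosin light chains, had 12.2 and 16.0 CPM in MUT and 29.7, 26.4, 27.2 and 27.0 CPM in WT, a log2 difference of -0.98 ± 0.20 (SE). Dapk3 averaged 14.1 ± 2.74 CPM in MUT and 27.6 ± 1.46 CPM in WT (SD, n = 2 and n = 4), and the 4 WT values lay close together.

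Others on the lower side had fewer molecules or an uneven MUT pair. Cdh4, which encodes R-cadherin, had 4.44 and 2.29 CPM in MUT and 17.1, 12.5, 8.49 and 8.36 CPM in WT, and its log2 difference was -1.76 ± 0.39 (SE). Nmt1, the N-myristoyltransferase, had 90.5 and 137 CPM in MUT and 225, 175, 225 and 178 CPM in WT. Irx3, a homeobox factor, had 45.8 and 50.1 CPM in MUT and 75.0, 71.4, 78.5 and 72.7 CPM in WT, where both groups were tight and the log2 difference was -0.64 ± 0.16 (SE). Prrc2a, an RNA-binding protein, had 54.9 and 124 CPM in MUT and 192, 196, 194 and 135 CPM in WT, and MUT replicate 2 came close to WT replicate 4. The remaining genes lower in MUT were Armc7, Tcea1-ps1, Cep250, Xpnpep3, Xab2 and Ndor1, with log2 differences from -1.87 to -0.66. Tcea1-ps1 is a processed pseudogene whose reads may be shared with its parent gene, so its value is uncertain.

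On the higher side, Nsfl1c, a cofactor of the ATPase p97 (chromosome 2, 151494182 to 151511414, plus strand), had 139 and 108 CPM in MUT and 78.4, 61.8, 59.0 and 65.0 CPM in WT. The log2 difference was 0.90 ± 0.19 (SE; unadjusted p = 0.000128, adjusted p = 0.454). Acot9, a mitochondrial acyl-CoA thioesterase encoded on the X chromosome, had 111 and 109 CPM in MUT and 61.3, 70.5, 77.3 and 79.1 CPM in WT, with MUT libraries that nearly coincided. Lrrc15, a membrane protein of activated fibroblasts, had 213 and 143 CPM in MUT and 85.6, 95.9, 141 and 105 CPM in WT, where MUT replicate 2 exceeded WT replicate 3 by less than 3 CPM. Ctla2a, a cysteine protease inhibitor, had 36.7 and 40.6 CPM in MUT and 9.14, 19.6, 17.0 and 14.8 CPM in WT, a log2 difference of 1.34 ± 0.35 (SE) that was 1.26 against WT replicates 3 and 4. Matr3, a nuclear matrix RNA-binding protein, had 67.8 and 63.1 CPM in MUT and 28.2, 40.2, 39.9 and 41.2 CPM in WT, and Clk4, a kinase of splicing factors, 15.2 and 13.7 CPM in MUT and 2.66, 7.72, 7.22 and 6.43 CPM in WT. In both genes WT replicate 1 was the lowest library. Rpl31-ps10 had the largest difference of the 12 (2.55), but it is a processed pseudogene of a ribosomal protein and its MUT values were 18.5 and 4.25 CPM. Hgf, described above, Cox6a2, Tomm5, Cldnd1 and Smc5 made up the 12, the last 4 with log2 differences of 1.19, 0.93, 0.48 and 0.90.

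**Figure D3:**
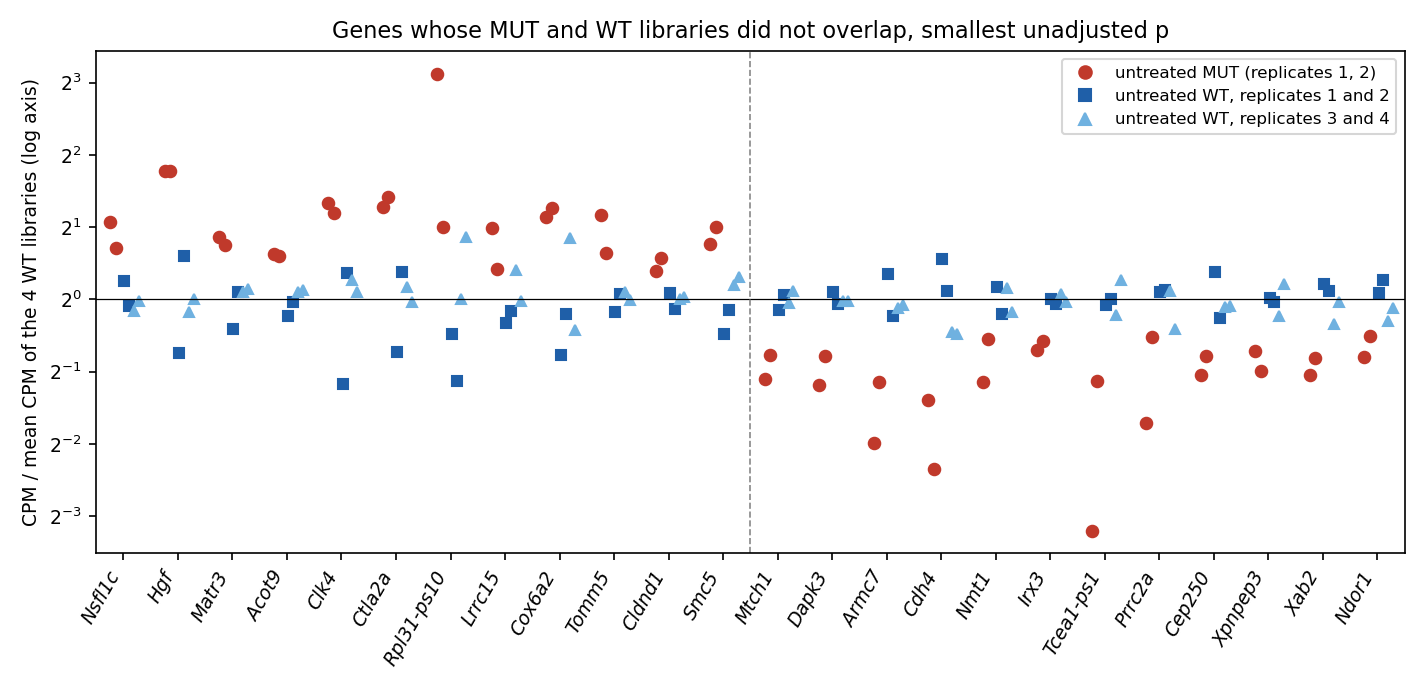
CPM of each untreated library divided by the mean of the 4 WT libraries (log axis) for the 12 genes higher and, right of the dashed line, the 12 genes lower in MUT that the rule named. Red circles (MUT) stand left of the WT points of each gene. The genes were chosen for not overlapping, so the gap itself is no test; Mtch1, Dapk3 and Irx3 show WT values close together, and Rpl31-ps10, Tcea1-ps1 and Prrc2a the widest MUT pairs.

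Matrix genes leaned upwards. Of 35 collagens and matrix proteins, 27 were above 0, 13 lay above all WT libraries and 2 below, beside 8.35% and 8.63% of all genes tested, and the median was 0.24 against all WT libraries, 0.15 against WT replicates 3 and 4 and 0.33 against WT replicates 1 and 2. Unadjusted p was under 0.05 for 4 higher genes and 1 lower gene, beside 3.19% and 4.0% of all genes tested. Postn, which encodes the matricellular protein periostin, had 2308 and 3010.2 CPM in MUT and 627, 2102, 1404 and 1432 CPM in WT, a log2 difference of 0.93 ± 0.43 (SE; adjusted p = 0.679). WT replicate 1 was far below the other WT libraries for Postn, yet the difference was 0.91 without it and WT replicate 2. Col6a2, a chain of collagen VI, had 816 and 941 CPM in MUT and 369, 689, 656 and 553 CPM in WT, and Fmod, the collagen-binding fibromodulin, 57.0 and 93.9 CPM in MUT and 22.1, 53.1, 46.7 and 50.8 CPM in WT. The fibrillar collagen genes Col1a1, Col1a2 and Col3a1 overlapped between genotypes, with log2 differences of 0.20, -0.09 and 0.20. Those 3 were named after their values were seen.

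Targets of p53 leaned downwards. Of 20 tested, 18 were below 0, 6 lay below all WT libraries and 1 above, beside 8.63% and 8.35% of all genes tested. An unadjusted p under 0.05 was found for 5 lower genes and 1 higher gene, beside 4.0% and 3.19%. Perp, a desmosome-associated p53 target, had 12.9 and 10.8 CPM in MUT and 41.5, 32.2, 29.3 and 25.1 CPM in WT, a log2 difference of -1.44 ± 0.42 (SE; adjusted p = 0.679) that was -1.20 against WT replicates 3 and 4. Cdkn1a, the cell cycle inhibitor p21, named after its values were seen, had 1236 and 1250.3 CPM in MUT and 2855, 2272, 1678 and 1782 CPM in WT. The list as a whole had a median of -0.35 against all WT libraries but -0.06 against WT replicates 3 and 4, and 10 of its genes passed the test as lower against WT replicates 1 and 2 (5.32% of all genes tested did). Plk2, a kinase that p53 induces and also named after its values were seen, went the other way, with 100.3 and 98.1 CPM in MUT and 50.2, 84.0, 72.6 and 83.0 CPM in WT.

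Cell cycle and lipid synthesis genes turned on WT replicates 1 and 2. Over 50 cell cycle genes the median was 0.49 against all WT libraries, 1.74 against WT replicates 1 and 2, where 43 genes passed as higher and 1 as lower (6.3% and 5.32% of all genes tested), and -0.17 against WT replicates 3 and 4, where none passed. Both MUT libraries lay below WT replicates 3 and 4 for 21 of the 50 and above them for 2. Over all genes tested these shares were 19.0% and 18.9%. Tk1, the thymidine kinase of S phase, was 1 of those 2 above. It had 72.2 and 57.9 CPM in MUT and 16.0, 14.8, 45.9 and 46.9 CPM in WT. That puts the WT pairs further apart than MUT and WT replicates 3 and 4. Ccnd1, cyclin D1 of G1 phase and also an NF-kB target, was 1 of 4 on the cell cycle list below 0 against all WT libraries. Against WT replicates 3 and 4 it had the sign of the list median. It had 175 and 181 CPM in MUT and 334, 269, 254 and 217 CPM in WT. Its log2 difference was -0.59 ± 0.19 (SE; adjusted p = 0.679) and -0.41 against WT replicates 3 and 4. Over 30 genes of cholesterol and fatty acid synthesis the median was -0.62 against all WT libraries and 0.10 against WT replicates 3 and 4, and 25 passed as lower against WT replicates 1 and 2, where the median was -1.07. Dhcr7, an enzyme of the last steps of cholesterol synthesis, had 23.4 and 21.3 CPM in MUT and 79.2, 70.5, 26.3 and 21.9 CPM in WT.

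Interferon-stimulated genes behaved likewise. Their median over 44 genes was -0.29 against all WT libraries, 0.01 against WT replicates 3 and 4 and -0.49 against WT replicates 1 and 2. Rsad2, the antiviral protein viperin, had 1.40 and 2.94 CPM in MUT and 9.52, 9.33, 1.27 and 2.57 CPM in WT, and only WT replicates 1 and 2 stood above MUT. Xaf1, an interferon-induced partner of XIAP, differed from that pattern, with 15.9 and 17.7 CPM in MUT and 27.4, 30.2, 25.5 and 27.0 CPM in WT and a log2 difference of -0.72 ± 0.27 (SE). Among 19 MHC class I presentation genes, 14 were below 0, and the median was -0.25 against all WT libraries, -0.07 against WT replicates 3 and 4 and -0.52 against WT replicates 1 and 2. Their summed level was higher in both MUT libraries (4642 and 4447 CPM) than in the WT libraries (3202 to 4385 CPM), opposite in sign to the median. Tapbp, the chaperone tapasin, had 124 and 127 CPM in MUT and 179.7, 202, 157 and 186 CPM in WT. Mitochondrially encoded transcripts had a median of -1.03 over 8 genes against all WT libraries, -0.19 against WT replicates 3 and 4 and -1.45 against WT replicates 1 and 2. Among them mt-Rnr2, the large mitochondrial ribosomal RNA, had 79.2 and 76.5 CPM in MUT and 714, 271, 60.7 and 199 CPM in WT, so the WT libraries covered more than a 10-fold range around the MUT values.

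**Figure D4:**
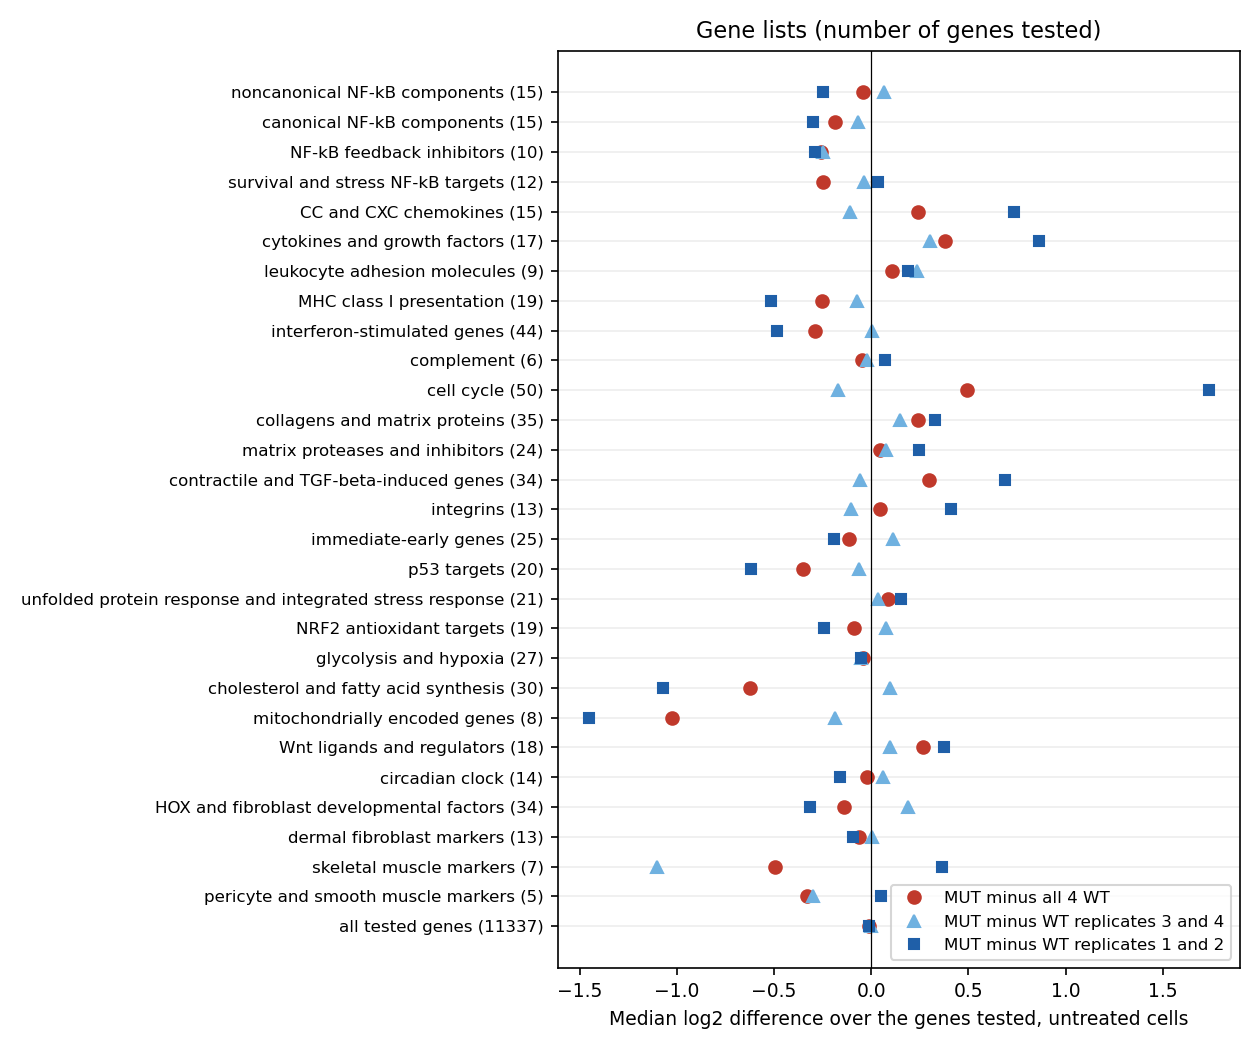
Median log2 difference of each gene list between untreated MUT and all 4 WT libraries (red circles), WT replicates 3 and 4 (light triangles) and WT replicates 1 and 2 (dark squares); the number of genes tested is in brackets. Cell cycle, cholesterol and mitochondrial lists spread widely between the symbols (cell cycle 0.49, -0.17 and 1.74), while the feedback inhibitors of NF-kB keep to -0.26, -0.25 and -0.29.

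In the authors' deposited table, the comparison of untreated MUT and WT had 1 gene called, Ubb-ps, with a log2 fold change of -19.3 and an adjusted p of 6.98e-05. The authors' deposited table gave 1 further gene with an adjusted p under 0.05, Mtch1, with a log2 fold change of -0.935 and an adjusted p of 0.00082, and it left that gene without a call. Ubb-ps, a pseudogene of the ubiquitin gene Ubb, held 0 UMIs in both MUT libraries, which allows up to 3 counts each (0.691 and 0.987 CPM of their raw totals, counting error only), and 0, 15, 0 and 0 UMIs in WT. A single WT library carried all its molecules in the untreated libraries, so the fold change against MUT libraries at 0 depends on how zeros are fitted, and reads of a pseudogene may be shared with its parent. The gene was not absent from MUT cells in general. After 24 h of TWEAK it had 0 CPM in MUT replicate 1 and 199 CPM in MUT replicate 2. Between untreated MUT and WT, Ubb-ps had an adjusted p of 0.753 in edgeR. For Nfkb2 the authors' deposited table gave a log2 fold change of -0.456 with an adjusted p of 0.778, and for Relb -0.495 with 0.881.

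The same genes were then read in the TWEAK-treated libraries, as values only, since libraries of the same numbers may come from the same cultures. The earlier time is 6 h in the labels and 3 h in the column names. Between MUT and WT, 0 genes (0.0%) passed edgeR's test at 6 h, where 796 had an unadjusted p under 0.05, and 130 genes (1.15%) at 24 h. Nfkb2 was lower in MUT at each time, with log2 differences of -0.45 untreated, -0.69 at 6 h and -0.88 ± 0.17 (SE) at 24 h, where it passed the test (adjusted p = 0.0211). Relb was lower untreated and at 24 h (-0.54) but not at 6 h (0.05). Ccnd1 (-1.13 ± 0.19 (SE), adjusted p = 0.0101) and Lrrc15 (1.15 ± 0.21 (SE), adjusted p = 0.0132) passed at 24 h with the sign they had untreated. Mtch1 did not keep its sign, at -0.93 untreated, 0.14 at 6 h and 0.25 at 24 h. MUT lay above all WT libraries at each of the 3 times for 91 genes (0.803%) and below for 90 (0.794%), and Nfkb2, Ccnd1, Gadd45b, Perp, Dapk3 and Nmt1 were among the lower ones, Lrrc15, Acot9, Cox6a2 and Asns among the higher ones. A change of the difference from the untreated state was called by edgeR for 0 genes at 6 h and 0 at 24 h, with 267 and 507 genes at an unadjusted p under 0.05.

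**Figure D5:**
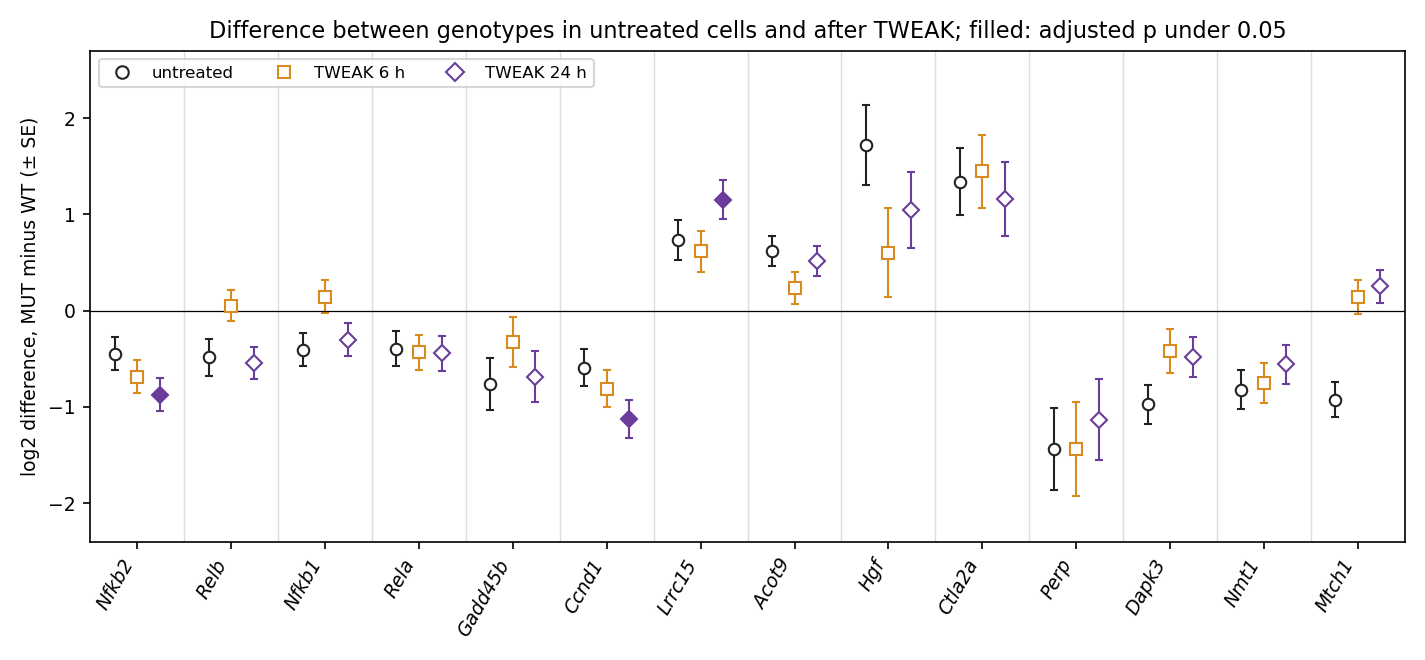
Log2 difference between MUT and WT (± SE of the fit) for 14 named genes in untreated cells and after 6 and 24 h of TWEAK; filled symbols passed the test at that time. Nfkb2, Ccnd1 and Lrrc15 are filled at 24 h only, and Mtch1 lies at -0.93 untreated and above 0 after TWEAK.

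Against WT replicates 3 and 4 alone, both MUT libraries lay above both WT libraries for 2143 genes (18.9%) and below them for 2153 (19.0%). For the 7 NF-kB lists the counts were 15 and 22 of 93 genes. With 2 libraries on each side, such counts describe these libraries.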

How the data were processed

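RNA of 24 samples had been made into 3′ UMI libraries from 50 ng of RNA. Per the labels' protocols, 2 extraction kits were in use, with no word on which sample had which. Per the submitters' processing notes, the authors used cutadapt, STAR 2.7.10a, HTSeq and DESeq2 with GRCm38. The authors' deposited table holds UMI counts per gene and library, not normalised, in which each gene has 6 or more counts in at least 1 library, and for each comparison the authors' log2 fold changes with p-values and adjusted p-values.

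The analysis used edgeR 4.0.16 in R 4.3.3. filterByExpr by group kept 11337 of 13479 genes. After TMM normalisation the 24 libraries in 9 groups were fitted with glmQLFit, MUT untreated minus WT untreated was tested with glmQLFTest (two-sided), and p-values were Benjamini-Hochberg adjusted over all genes tested at 0.05. The other groups entered so that the spread does not rest on the 2 MUT libraries. SEs were computed as the log2 difference over the root of F. CPM are TMM-normalised, and principal components used log2 CPM with a prior count of 2. No 2 libraries of the same genotype and time were duplicates by a chi-square comparison of their counts, and pairs across groups were not compared. The test was tried on simulated counts.

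Gene lists (33) and genes were chosen with earlier results of these data known. Named were Nfkb2, Relb, Map3k14, Tnfrsf12a, Chuk and Ikbkb, the 12 genes higher and 12 lower described in the text, up to 3 members of each list with an unadjusted p under 0.05, genes past the test against WT replicates 3 and 4 or called by the authors, and members of the NF-kB lists. Gene positions are from GENCODE M21 (GRCm38), where 13287 of the 13479 symbols matched. Promoter windows are from RefSeq (GRCm38.p6). Alternatives were another normalisation (RLE), other filters, fewer libraries, the 6 untreated MUT and WT libraries thinned to 1 total, a replicate block, a culture block (limma 3.58.1) and DESeq2 1.42.0.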

Additional observations from a re-analysis of the deposited data

Results flagged for a closer look

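In 4 of the 72 genes followed through the alternatives below, 1 of the 4 untreated WT libraries stood apart from the rest by Dixon's test at the 95% level, which chance passes in a small share of groups. That count leaves out NF-kB list members named only for their values. Among those is Cxcl12, whose WT replicate 1 lay far below the other WT libraries. Nfkb2 had 123 CPM in WT replicate 1, above the other 3 WT libraries, and both MUT libraries (75.0 and 74.6 CPM) lay below all 4. Matr3 had its lowest WT value in replicate 1, at 28.2 CPM. Prrc2a had its lowest WT value in replicate 4, at 135 CPM, beside 54.9 and 124 CPM in MUT. Ubb-ps had 4.83 CPM in WT replicate 2 and no UMI in the other untreated MUT and WT libraries.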

How the results depend on the processing

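The count of 0 genes past the test held with RLE normalisation, without a filter, with a mean of at least 5 CPM, with only the 6 or the 8 untreated libraries, with the 6 untreated libraries thinned to 1575261 UMIs, with the culture as a block in limma-voom and without each replicate in turn (0 to 0 genes, with 294 to 1222 at an unadjusted p under 0.05). It was 1 gene against WT replicates 3 and 4, 1317 against WT replicates 1 and 2 and 2 with DESeq2. With the replicate number as a block it was 1500 genes. The MUT libraries carry only the numbers 1 and 2, so that block sets them against WT replicates 1 and 2. Whether equal numbers pair the untreated libraries could not be decided. Deviations from the group means of 7289 genes correlated at 0.0067 for number 1 and 0.055 for number 2. With 2 MUT libraries, the deviations of 1 mirror those of the other, so these values are not separate checks of pairing. The median of the 9 genes that TWEAK raised in KO was -0.29, and -0.24 against WT replicates 3 and 4. A different list, of genes raised in WT replicates 1 and 2, had a median of -0.00972 against WT replicates 3 and 4. Of 72 genes named, 68 kept their sign in all 17 alternatives in which they had a value. Chuk, Rsad2 and Ubb-ps lost theirs against WT replicates 3 and 4, and Tnfrsf12a in 4 alternatives. The 72 leave out NF-kB list members named only for their values. Of the 9 genes that TWEAK raised in KO, Ccl2 (0.24 to -0.11) and Iigp1 (-0.41 to 0.34) changed sign against WT replicates 3 and 4. The rest of the 9 kept theirs in that alternative, but Ccl20 changed sign against WT replicates 1 and 2 (-0.24 to 1.34). Depth was lowest in WT replicate 4.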
